A study of Mus musculus with 72 samples.

Results

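*Lsamp*, *Cadm2*, *Mdga2* and *Dcc* are long genes that encode cell-surface proteins with immunoglobulin domains, and the DNA breaks captured within them were examined in mouse neural progenitor cells. The regions were set by gene name and by position in GRCm38, and the genes were chosen with earlier results of these data known. The regions were the *Lsamp* gene body (chr16:39984361-42181679), the *Cadm2* gene body (chr16:66655421-67620908), a window over *Mdga2* (chr12:66400001-67400000) and a window over *Dcc* (chr18:71300001-72300000). These 4 regions held 670 of the 591366 junctions that could be placed on a chromosome, and they were set beside 567 long genes in all, counting themselves, with a gene body of at least 300 kb. Junction lists were used for 60 of the series' 72 samples. The 12 replication-timing samples were not analysed here.

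Breaks were mapped by LAM-HTGTS, in which Cas9 cuts a bait site and the joined end of a second break, the prey, is read outward from a primer beside the cut. The cells came from 2 populations. The first was Nxp010, a single line of neural progenitor cells (NPCs) derived from embryonic stem cells with the genotype NestinCre+Xrcc4-/-p53-/-, which lacks the end-joining ligase cofactor XRCC4 and p53. It was treated with the solvent DMSO, with ART558, with aphidicolin (Aph), or with both drugs. The second was wild-type primary neural stem and progenitor cells (NSPCs) from C57BL/6J embryonic brain, treated with Aph alone or with Aph plus ART558, and no wild-type library without Aph was in the series. Aph slows DNA polymerases and was given at 0.5 µM for 72 h and then at 0.25 µM for 24 h. ART558 inhibits polymerase theta (Pol θ), which joins ends through short shared sequences, and was given at 5 µM for 72 h and then at 2.5 µM for 24 h. *Xrcc4*/*p53*-deficient cells had baits on chromosomes 6, 8, 12 and 14, and wild-type cells had baits on chromosomes 6 and 14. The chromosome 14 bait of the deficient cells came from the DMSO and Aph arms of a promoter and enhancer experiment, as did 7 further chromosome 6 DMSO libraries, which were kept out of the comparisons unless stated but enter the counts and positions over all 60 libraries. The junction lists hold no expression values, so neither the deleted genes nor the identity of the cells could be checked in them. The labels number the replicates without saying that they were separate cultures, so the p-values measure the spread between these libraries.

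LSAMP belongs to the IgLON family, glycosylphosphatidylinositol-anchored proteins that pair with one another on neuronal surfaces. CADM2 is a synaptic cell adhesion molecule, and MDGA2 is an anchored protein that binds neuroligins and limits synapse formation. DCC is the receptor for netrin-1 and steers growing axons. All are expressed in the developing brain, and very long neural genes of this kind are known as places where breaks cluster when replication is slowed.

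The bait sites fix what can be captured, because junctions on the bait's own chromosome are enriched by proximity. Each guide below matched 1 site on its chromosome in GRCm38, none of these sites lay in a protein-coding gene, and the capitals mark the PAM.
chr6 bait, chr6:70950106-70950125, minus strand: gagggttggaaatgctcgtaTGG
chr8 bait, chr8:59477701-59477720, minus strand: gtcgaccatatgctaatcttAGG
chr12 bait, chr12:12994038-12994057, plus strand: attccgccaaccctcgagatAGG
chr14 bait, chr14:83268830-83268849, plus strand: ggcttagttatagtaggggcTGG
The chromosome 12 cut lies 53.41 Mb from the *Mdga2* window on the same chromosome. *Mdga2* was therefore counted without this bait, except where stated, and *Lsamp*, *Cadm2* and *Dcc* share no chromosome with a bait.

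The junctions themselves show how a prey end was joined. The following *Lsamp*, *Cadm2* and *Mdga2* junctions of *Xrcc4*/*p53*-deficient cells are examples, each picked from 2 to 5 candidates outside recurrent stretches and repeats by its distance from their median position, and each is written in the direction of the read, with the bait reference, the read and the prey reference in turn. Capitals in the bait and prey references mark the bases kept in the read, and capitals in the read mark bases that bait and prey share.
*Lsamp* with Aph, 2 bp shared, prey at 40979116 on the plus strand, bait reference: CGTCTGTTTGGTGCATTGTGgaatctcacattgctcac
read: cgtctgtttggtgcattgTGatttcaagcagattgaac
prey reference: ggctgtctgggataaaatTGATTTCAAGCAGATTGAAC
*Cadm2* with Aph, 2 bp shared, prey at 67164659 on the plus strand, bait reference: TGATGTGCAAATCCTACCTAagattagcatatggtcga
read: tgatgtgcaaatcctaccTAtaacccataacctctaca
prey reference: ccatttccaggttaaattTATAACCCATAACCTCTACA
*Cadm2* with Aph plus ART558, direct join, prey at 66762339 on the minus strand, bait reference: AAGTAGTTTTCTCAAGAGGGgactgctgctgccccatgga
read: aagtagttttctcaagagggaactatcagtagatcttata
prey reference: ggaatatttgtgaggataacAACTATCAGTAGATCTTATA
*Mdga2* with Aph, 2 bp shared, prey at 66851842 on the minus strand, bait reference: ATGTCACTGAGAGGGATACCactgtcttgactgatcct
read: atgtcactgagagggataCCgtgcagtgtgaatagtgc
prey reference: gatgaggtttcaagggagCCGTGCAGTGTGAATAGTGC

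The libraries held 133 to 37027 junctions (median 7764.5), and the 57 libraries used held 668 to 8489 junctions off the bait chromosome (median 2853). Near-identical repeats, junctions of 1 library on 1 strand within 10 bp of another, made up 24.6% of off-bait junctions in wild-type libraries and 8.62% in *Xrcc4*/*p53*-deficient libraries. The read names place the libraries on 11 sequencing runs, and no run holds both genotypes. All deficient libraries also came from embryonic stem cell-derived NPCs and all wild-type libraries from primary NSPCs. Genotype, cell origin and run therefore cannot be told apart. Stretches of 500 bp that held junctions of at least 5 libraries numbered 397 and took 6.70% of off-bait junctions. Several results that rest on such stretches or repeats are given with and without them below, a choice made after the data were seen.

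Across all 60 libraries, *Lsamp* held 259 junctions in 51 libraries, *Cadm2* held 127 in 40, *Mdga2* held 142 in 40 and *Dcc* held 142 in 49. Of the *Mdga2* junctions, 62 came from the chromosome 12 bait. Nearly all were intronic. *Lsamp*, on the plus strand (ENSMUSG00000061080.11), had 3 junctions in exons and none in a coding exon, *Cadm2*, on the minus strand (ENSMUSG00000064115.13), had 1 in a non-coding exon, and *Mdga2* and *Dcc*, both on the minus strand (ENSMUSG00000034912.17 and ENSMUSG00000060534.16), had none. The *Mdga2* window also holds 14 junctions outside the gene body (chr12:66466060-67222549), while the *Dcc* window lies inside its gene (chr18:71253634-72351069). No other protein-coding gene lies in the 4 regions.

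Intron 1 is the longest intron of each gene. In *Cadm2* it spans 666.9 kb, which is 69.1% of the region, and held 81.9% of the junctions. In *Mdga2* it spans 352.2 kb and held 49.3% of the junctions in 35.2% of the window, or 42.5%, 48 of 113, without the recurrent stretches and repeats described next. The share was below the length share in *Lsamp*, where the 801.3 kb intron took 32.4% of junctions in 36.5% of the gene, and in *Dcc*, where it took 25.4% in 34.5% of the window. All 4 regions are AT-rich. Their GC content was 37.8% for *Lsamp*, 35.5% for *Cadm2*, 36.6% for *Mdga2* and 36.9% for *Dcc*, against a median of 40.9% over 563 other long genes, of which 93, 9, 38 and 50 had a lower GC content.

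Single sites took a visible share of the junctions of *Mdga2* and *Dcc*. In *Mdga2*, 19 junctions of 11 libraries were placed by alignment within 315 bp of intron 1 (chr12:67059162-67059476), and they came from all 4 baits. *Xrcc4*/*p53*-deficient libraries gave 18 of them and wild-type libraries 1. The reference is soft-masked as repeat over 82.5% of the stretch, and a word of 9 bases, ACTGTAGGA, recurs in it 5 times. The first 24 bases of the stretch and 24 bases in its middle occur 1 time each in the reference, but its last 24 bases occur 7 times. Whether these junctions arose in *Mdga2* or in similar sequence elsewhere was not tested. The first 300 bases are shown on the plus strand of GRCm38, with 4 copies of this word in capitals, because this stretch carried all 3 off-bait *Mdga2* junctions of the ART558 libraries and 5 of the 10 *Mdga2* junctions of the third chromosome 6 Aph plus ART558 library of the deficient cells.
chr12:67059162-67059461: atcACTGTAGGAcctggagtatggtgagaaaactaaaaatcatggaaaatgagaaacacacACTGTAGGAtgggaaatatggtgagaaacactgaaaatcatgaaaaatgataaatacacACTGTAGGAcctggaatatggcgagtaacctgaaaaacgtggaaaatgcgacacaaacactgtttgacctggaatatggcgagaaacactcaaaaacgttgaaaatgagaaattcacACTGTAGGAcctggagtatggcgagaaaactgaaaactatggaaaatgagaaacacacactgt

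In *Dcc*, 17 junctions of 10 libraries lay within 5 bp of each other at chr18:71423339-71423343, all on the plus strand. Wild-type libraries gave 13 of them. Each had a prey of 34 to 38 bases that was at least 90% a single base and an insertion of 4 to 28 bp, and the reference has an unbroken run of 34 G on 1 strand there, 1 of 55 such runs of at least 30 bases on the assembled chromosomes. No *Lsamp*, *Cadm2* or *Mdga2* junction had such a prey. All 6 *Dcc* junctions of the first wild-type chromosome 6 Aph plus ART558 library lay at this run.

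Some libraries held 1 junction many times over. All 8 *Cadm2* junctions of the first wild-type chromosome 6 Aph plus ART558 library ended at 67153127 on the minus strand. All 8 *Lsamp* junctions of the second wild-type chromosome 6 Aph library lay between 41359104 and 41359108, and all 7 *Dcc* junctions of the fourth wild-type chromosome 6 Aph plus ART558 library lay between 71836360 and 71836362. In these libraries the gene concerned therefore rests on 1 site. Without recurrent stretches and with repeats within 10 bp counted once, 220 *Lsamp*, 111 *Cadm2*, 113 *Mdga2* and 103 *Dcc* junctions were left.

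DSB density is given as junctions per 1000 off-bait junctions per megabase (JPTM). Breaks in *Lsamp* were captured in every condition. In *Xrcc4*/*p53*-deficient libraries its mean density was 0.423 ± 0.394 JPTM with DMSO (SD, n = 10), 0.487 ± 0.337 with ART558 (n = 8), 0.917 ± 0.424 with Aph (n = 9) and 0.605 ± 0.229 with both drugs (n = 8). In wild-type libraries it was 1.25 ± 1.90 with Aph (n = 7) and 1.17 ± 1.09 with both drugs (n = 8). The 4 conditions of the deficient cells overlapped, and the wild-type conditions spread far more widely than they did. With recurrent stretches and repeats removed, the wild-type Aph mean of *Lsamp* was 0.694 ± 0.446, since 1 library at 5.45 JPTM held a single repeated junction.

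*Cadm2* had the widest range of means. It reached 0.458 ± 0.551 JPTM with DMSO, 0.344 ± 0.514 with ART558, 1.30 ± 0.683 with Aph and 0.785 ± 0.468 with both drugs in the deficient cells, with the same numbers of libraries as *Lsamp*. In wild-type cells it was 0.0644 ± 0.171 with Aph and 2.21 ± 1.99 with both drugs. Only 1 *Cadm2* junction was found in the 7 wild-type Aph libraries, which held 13568 off-bait junctions, and the 6 libraries at 0 allow up to 1.09 to 4.65 JPTM each, taking 3 junctions as the limit of a count of 0. Among 442 long genes, *Cadm2* ranked 11 by pooled density in the deficient cells with Aph.

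*Mdga2*, counted without the chromosome 12 bait, had mean densities of 0.304 ± 0.508 JPTM with DMSO (n = 8), 0.260 ± 0.449 with ART558 (n = 5), 1.06 ± 0.924 with Aph (n = 7) and 1.37 ± 0.875 with both drugs (n = 5) in the deficient cells. Wild-type means were 0.298 ± 0.312 with Aph (n = 7) and 0.577 ± 0.526 with both drugs (n = 8). Of the 8 DMSO libraries 5 had no *Mdga2* junction, and each of these allows 3.27 to 4.22 JPTM at its depth. Without recurrent stretches and repeats the ART558 mean was 0 and the mean with both drugs was 1.14 ± 0.499.

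*Dcc* had mean densities of 0.485 ± 0.527 JPTM with DMSO, 0.516 ± 0.452 with ART558, 1.09 ± 0.513 with Aph and 0.442 ± 0.234 with both drugs in the deficient cells, over the same libraries as *Lsamp*. Wild-type means were 0.819 ± 1.33 with Aph and 2.10 ± 1.47 with both drugs. Removal of the G-run site, of other recurrent stretches and of repeats took the wild-type means to 0.467 ± 0.649 and 1.23 ± 0.738. The 7 chromosome 6 DMSO libraries of the promoter and enhancer experiment gave 0.373 ± 0.229 for *Lsamp*, 0.468 ± 0.530 for *Cadm2*, 0.420 ± 0.259 for *Mdga2* and 0.832 ± 0.485 for *Dcc*.

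**Figure D1:**
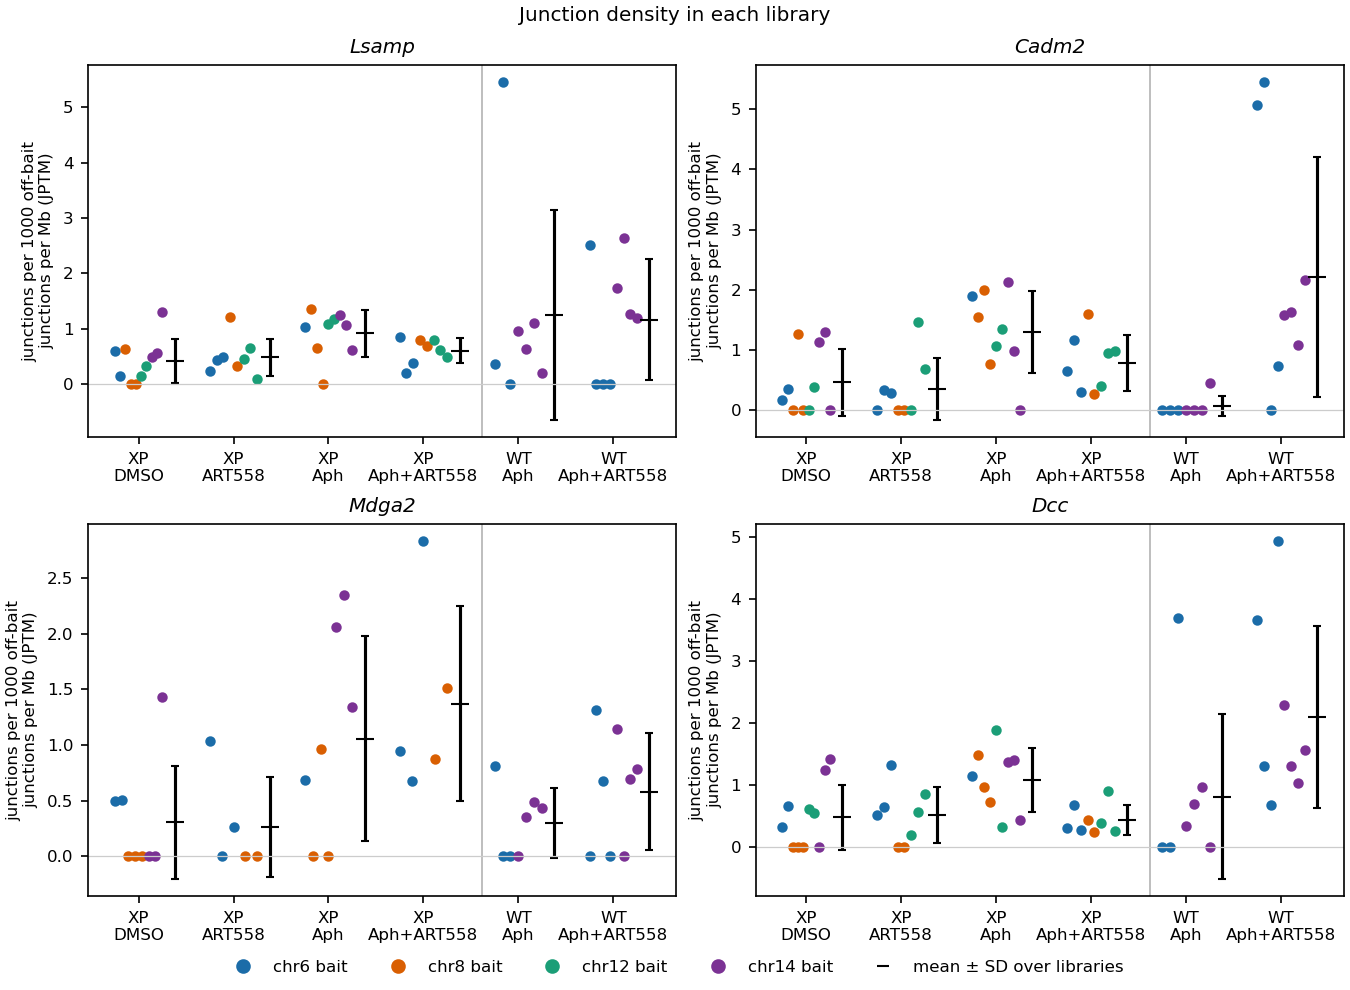
Junction density of the 4 genes in each library, in JPTM, by condition (XP, Xrcc4/p53-deficient cells, and WT, wild-type cells), with points coloured by bait chromosome and with the mean ± SD beside them. With Aph the deficient libraries of Cadm2 reach 2.13 JPTM, and 6 of 7 wild-type Aph libraries of Cadm2 lie at 0, while the chr12 bait is left out for Mdga2.

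**Figure D2:**
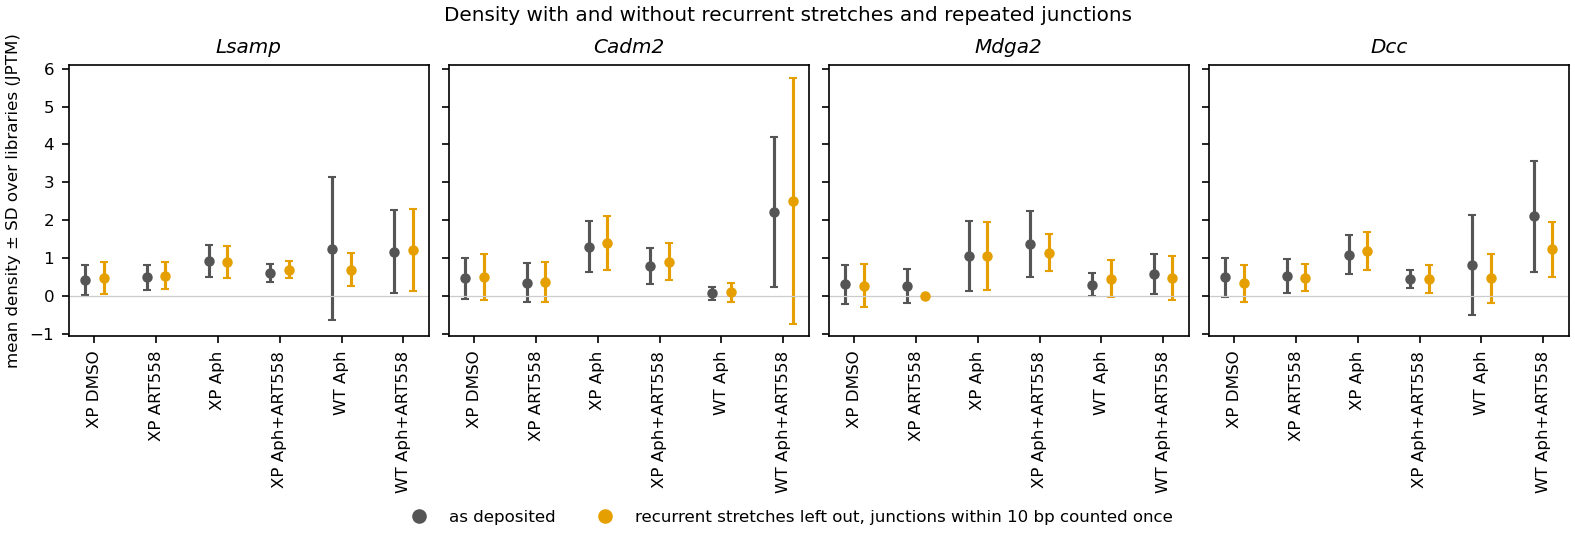
Mean density ± SD over libraries in JPTM, with all deposited junctions (grey) and with recurrent stretches left out and junctions within 10 bp counted once (orange). The wild-type Aph mean of Lsamp moves from 1.25 to 0.694 and the wild-type mean of Dcc with both drugs from 2.10 to 1.23.

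The first comparison asks whether replication stress raised break capture in these genes in cells that cannot join ends by the classical route. All 4 genes had a higher mean density with Aph than with DMSO, with every bait, but none passed the adjusted threshold over all long genes. *Lsamp* libraries ranged from 0 to 1.35 JPTM with Aph (median 1.07) and from 0 to 1.30 with DMSO (median 0.414). The difference averaged over the 4 baits was 0.552 JPTM (exact permutation p = 0.0161, adjusted p = 0.0701). *Cadm2*, which ranged from 0 to 2.13 with Aph (median 1.35) and from 0 to 1.30 with DMSO (median 0.259), differed by 0.973 JPTM (exact permutation p = 0.00903, adjusted p = 0.0578). For *Cadm2*, 5 of the 9 Aph libraries lay above every DMSO library, and for *Lsamp* 1 did.

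*Mdga2* ranged from 0 to 2.35 JPTM with Aph (median 0.967) and from 0 to 1.43 with DMSO (median 0). It differed by 0.649 JPTM over 3 baits, of which chromosome 14 gave 1.44 and chromosomes 6 and 8 gave 0.187 and 0.322 (exact permutation p = 0.0167, adjusted p = 0.0701). *Dcc*, with 0.325 to 1.89 with Aph (median 1.14) and 0 to 1.43 with DMSO (median 0.438), differed by 0.602 JPTM (exact permutation p = 0.0260, adjusted p = 0.0854). Of 101 long genes tested, 13 passed the adjusted threshold of 0.05 (12.9%), 12 higher (11.9%) and 1 lower (0.99%) with Aph. An unadjusted p under 0.05 was found for 39 (38.6%), 38 higher (37.6%) and 1 lower (0.99%). A higher density with Aph was common to long genes, as 84 of the 101 differences were above 0, with a median of 0.377 JPTM. *Cadm2* ranked 12 of 101 from the highest, *Mdga2* 29, *Dcc* 31 and *Lsamp* 37.

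These 4 values lie close to the threshold and crossed it under some settings and moved away under others. The share of all long genes that passed in these settings is not given here, so the passes cannot be set beside it. Per 1000 of all junctions, bait chromosome included, all 4 passed, with adjusted p of 0.00351 for *Lsamp*, 0.00427 for *Cadm2*, 0.0175 for *Mdga2* and 0.00140 for *Dcc* in the exact permutation test. Off-bait junctions made up a larger share with Aph than with DMSO with every bait, so this denominator itself differs between the drugs. They were 5476 of 36999 junctions in the second chromosome 12 DMSO library and 6146 of 15135 in the second Aph library of that bait. Without recurrent stretches and repeats *Dcc* differed by 0.862 JPTM (adjusted p = 0.0244, exact permutation), while *Lsamp* at 0.454 (adjusted p = 0.107) and *Cadm2* at 0.970 (adjusted p = 0.0532) did not pass and *Mdga2* held 19 junctions, too few for a test. In the other region of each gene, a 1 Mb window or the gene body, none passed, with adjusted p of 0.300 for *Lsamp*, 0.0545 for *Cadm2*, 0.0545 for *Mdga2* and 0.210 for *Dcc* in the exact permutation test. Within sequencing runs, which leaves out the third chromosome 14 Aph library, the adjusted p were 0.0483 for *Lsamp*, 0.0281 for *Cadm2*, 0.128 for *Mdga2* and 0.0451 for *Dcc*. Without a depth minimum *Lsamp* and *Cadm2* passed (adjusted p = 0.0433 and 0.0368, exact permutation), but *Dcc* differed by 0.202 JPTM (adjusted p = 0.907). *Lsamp* also passed without the third chromosome 8 Aph library (0.636 JPTM) or the fourth chromosome 14 DMSO library (0.617), *Cadm2* without the third chromosome 8 Aph library (1.06) or the third chromosome 14 DMSO library (1.03), and *Dcc* without the second chromosome 12 Aph library (0.797).

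The second comparison asks what Pol θ inhibition does under Aph in the deficient cells, and the Aph libraries are shared with the first. The genes did not point one way. *Cadm2* ranged from 0.261 to 1.59 JPTM with both drugs (median 0.796, n = 8) and from 0.762 to 2.00 with Aph alone on the same baits (median 1.44, n = 6), and 4 of the 8 libraries with both drugs lay below every Aph library. Its difference was -0.711 JPTM, lower with each of 3 baits (exact permutation p = 0.0375, adjusted p = 0.371). *Dcc* ranged from 0.252 to 0.910 with both drugs (median 0.352) and from 0.325 to 1.89 with Aph (median 1.06), with a difference of -0.673, again lower with each bait (exact permutation p = 0.015, adjusted p = 0.361). *Lsamp* gave a difference of -0.329 (exact permutation p = 0.168, adjusted p = 0.506) and was higher with the chromosome 8 bait by 0.0728. None of the 130 long genes tested passed the adjusted threshold (0%), and 15 had an unadjusted p under 0.05 (11.5%), all of them lower with both drugs, *Cadm2* and *Dcc* among them. The smallest p these libraries allow, 0.0025, is too large for 1 gene alone to pass over 130 genes, and the same holds for the comparisons with ART558 alone in these cells. Per 1000 of all junctions, *Cadm2* differed by -0.0607 (exact permutation p = 0.675) and *Dcc* by -0.117 (exact permutation p = 0.283). Drug and sequencing run cannot be told apart with the chromosome 8 and 12 baits, whose 2 groups lie on different runs. Within a run, only the chromosome 6 bait was left, with 1 Aph library, and gave -1.19 for *Cadm2*, -0.718 for *Dcc*, -0.557 for *Lsamp* and 0.797 for *Mdga2*.

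*Mdga2* had the higher mean with both drugs, at 0.942, 0.677 and 2.83 JPTM in the chromosome 6 libraries and at 0.876 and 1.51 in the chromosome 8 libraries. Aph alone gave 0.686 for the chromosome 6 library and 0, 0.967 and 0 for the chromosome 8 libraries. The difference of 0.835 JPTM was the second highest of the 130 genes (exact permutation p = 0.275, adjusted p = 0.573), where the smallest p that these libraries allow is 0.025. The library at 2.83 held 5 junctions of the recurrent stretch shown above and a further junction captured 3 times, and without such stretches and repeats the difference was 0.584 JPTM. The groups overlapped.

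For ART558 without Aph neither gene that could be tested passed, and the groups of every gene overlapped. The differences from DMSO over 3 baits were 0.244 JPTM for *Lsamp* (exact permutation p = 0.189, adjusted p = 0.971) and 0.0975 for *Dcc* (exact permutation p = 0.530, adjusted p = 0.971). *Cadm2* and *Mdga2* held 16 and 9 junctions, under the minimum of 20 for a test, and differed by 0.0167 and -0.0324 JPTM. None of 52 long genes passed (0%), and 4 had an unadjusted p under 0.05 (7.69%), 1 higher (1.92%) and 3 lower (5.77%) with ART558. *Lsamp* and *Dcc* turned negative in other regions, at -0.161 in a 1 Mb window of *Lsamp* and at -0.0249 over the *Dcc* gene body. The ART558 and DMSO libraries of the chromosome 8 bait share no sequencing run, and within runs the differences were 0.0866 for *Lsamp* and 0.146 for *Dcc*.

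Against ART558 alone, the libraries with both drugs differed most in *Mdga2*, by 1.12 JPTM, the highest value of 112 long genes (exact permutation p = 0.05, adjusted p = 0.618). The 5 ART558 libraries of *Mdga2* lay at 0, 0, 0, 0.265 and 1.04, and 2 of the 5 libraries with both drugs lay above them all. *Cadm2* differed by 0.495 (exact permutation p = 0.0992, adjusted p = 0.618), *Lsamp* by 0.102 (exact permutation p = 0.558, adjusted p = 0.889) and *Dcc* by -0.0275 (exact permutation p = 0.868, adjusted p = 0.992). None of the 112 genes passed (0%), and 5 had an unadjusted p under 0.05 (4.46%), 4 higher (3.57%) and 1 lower (0.893%) with both drugs. The chromosome 8 and 12 baits have no shared run here, and the chromosome 6 bait alone gave 1.05 for *Mdga2*, 0.500 for *Cadm2*, 0.0958 for *Lsamp* and -0.406 for *Dcc* within a run.

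In wild-type NSPCs the addition of ART558 to Aph was examined with the chromosome 6 and 14 baits. *Cadm2* held 34 junctions in the 8 libraries with both drugs and 1 in the 7 Aph libraries. With both drugs it ranged from 0 to 5.45 JPTM (median 1.61), and 7 of the 8 libraries lay above every Aph library. The difference was 2.16 JPTM (exact permutation p = 0.0106, adjusted p = 0.403). It was 2.43 without recurrent stretches and repeats (exact permutation p = 0.0122, adjusted p = 0.171), with 1 chromosome 6 library of 760 off-bait junctions at 10.4 JPTM. Without the third chromosome 6 library with both drugs, which had no *Cadm2* junction, the difference was 2.63 (adjusted p = 0.0471, exact permutation). The share of all long genes that passed without this library is not given here. With all libraries, none of the 38 long genes tested passed (0%), and 3 had an unadjusted p under 0.05 (7.89%), of which *Cadm2* was 1.

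*Dcc* ranged from 0.679 to 4.94 JPTM with both drugs (median 1.44) and from 0 to 3.70 with Aph (median 0.351), a difference of 1.23 (exact permutation p = 0.133, adjusted p = 0.434) that became 0.766, with too few junctions for a test, without recurrent stretches and repeats. *Lsamp* ranged from 0 to 2.63 with both drugs (median 1.23) and from 0 to 5.45 with Aph (median 0.640), and its baits opposed each other, at -1.31 with chromosome 6 and 0.979 with chromosome 14. The mean was -0.167 (exact permutation p = 0.891, adjusted p = 0.968), and it turned to 0.525 JPTM once recurrent stretches were left out and repeats counted once. *Mdga2* held 14 junctions and was not tested; its difference was 0.283.

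The chromosome 14 bait, with deeper wild-type libraries, separated the drugs more clearly. *Lsamp* stood at 0.957, 0.640, 1.11 and 0.198 JPTM with Aph and at 1.74, 2.63, 1.27 and 1.19 with both drugs. *Cadm2* stood at 0, 0, 0 and 0.451 with Aph and at 1.58, 1.63, 1.08 and 2.16 with both drugs. *Dcc* stood at 0.351, 0.703, 0.975 and 0 with Aph and at 2.29, 1.31, 1.04 and 1.57 with both drugs. For these 3 genes the groups did not overlap, and they were the 3 of 37 tested long genes, those on chromosome 14 left out, for which this held (8.11%). *Mdga2* overlapped, with 0, 0.352, 0.488 and 0.436 against 1.15, 0, 0.696 and 0.783. This bait was looked at alone after the data were seen. *Lsamp* and *Cadm2* stayed apart without recurrent stretches and repeats, *Dcc* overlapped, and the groups of 4 of the 37 genes did not overlap in that setting (10.8%).

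Wild-type and *Xrcc4*/*p53*-deficient cells under Aph were compared with the chromosome 6 and 14 baits. *Lsamp* differed by 0.325 JPTM (exact permutation p = 0.95, adjusted p = 0.95) and *Dcc* by -0.238 (exact permutation p = 0.814, adjusted p = 0.944). *Cadm2* and *Mdga2* held 14 and 18 junctions and were not tested, and their differences were -1.41 and -1.01 JPTM. For *Mdga2*, 6 of the 7 wild-type libraries lay below every deficient library, the lowest of which stood at 0.686. Of the wild-type libraries 3 had no *Mdga2* junction, and each of these allows up to 1.05 to 4.49 JPTM at its depth, so the separation is not firm. Of 20 long genes tested, 3 passed the adjusted threshold (15%), all lower in wild-type cells.

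With both drugs the genotypes share only the chromosome 6 bait. There *Dcc* stood at 3.67, 1.32, 0.679 and 4.94 JPTM in wild-type and at 0.314, 0.677 and 0.283 in deficient libraries, and all 4 wild-type values lay above the deficient ones, the closest by 0.679 against 0.677, as in 2 of 13 long genes tested (15.4%), while 1 lay below throughout (7.69%). The difference was 2.23 (exact permutation p = 0.143, adjusted p = 0.619), and it was 0.985, on 6 junctions, without the G-run site and repeats. In that setting the first wild-type library keeps no *Dcc* junction, and the groups overlap. None of 13 long genes tested passed (0%), and 1 had an unadjusted p under 0.05 (7.69%). The smallest p that 4 against 3 libraries allow is 0.0286, at which 1 gene alone could not pass after adjustment. *Cadm2* differed by 2.11 (exact permutation p = 0.371, adjusted p = 0.867), *Lsamp* by 0.143 (exact permutation p = 1, adjusted p = 1) and *Mdga2*, not tested at 18 junctions, by -0.985.

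The ART558 effect under Aph was compared between genotypes with the chromosome 6 bait, where the deficient Aph group is 1 library. The effect in wild-type minus that in deficient cells was 4.00 JPTM for *Cadm2* (exact permutation p = 0.0786, adjusted p = 0.964) and 2.13 for *Dcc* (exact permutation p = 0.4, adjusted p = 0.964). It was -0.756 for *Lsamp* (exact permutation p = 0.864, adjusted p = 0.964) and -0.569 for *Mdga2* (exact permutation p = 0.564, adjusted p = 0.964). None of 24 long genes had an adjusted or an unadjusted p under 0.05 (0%). This test says little, since its 140 arrangements of the genotype labels are too few for 1 gene alone to pass after adjustment over 24 genes, and the lone deficient Aph library is assumed to vary like the wild-type ones.

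With the chromosome 12 bait *Mdga2* lies on the bait chromosome. Its mean density there was above the mean over the other baits in every condition of the deficient cells except that with both drugs. With Aph, however, the mean was 1.837 JPTM with the chromosome 12 bait and 1.915 with the chromosome 14 bait. The Aph libraries stood at 1.89 and 1.79 JPTM and the DMSO libraries at 1.85 and 1.10, a difference of 0.366 (exact permutation p = 0.667) that turned to -0.0026 without recurrent stretches and repeats. The libraries with both drugs stood at 0.584, 0.227 and 1.61, a difference of -1.03 from Aph (exact permutation p = 0.2), whereas the difference on the other baits was 0.835. ART558 libraries stood at 0.989, 1.13 and 0.651. The groups hold 2 or 3 libraries, so that 1 arrangement of the labels out of 6, 10 or 20 is the finest step of these tests.

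Junctions were spread along each gene, and positions are given over all 60 libraries. A plus-strand prey is read from the break toward higher coordinates and a minus-strand prey toward lower coordinates. The distance from the median of minus-strand to that of plus-strand prey, measured in genome coordinates, was 1046 kb in *Lsamp* of the deficient cells with Aph, from 34 minus-strand and 25 plus-strand junctions. It was -48.3 kb with DMSO, where 20 of the 45 junctions belong to the comparison libraries, 423 kb with ART558 and 24.4 kb with both drugs. In wild-type *Lsamp* it was -394 kb with Aph and 601 kb with both drugs. These distances have no test, because a library holds too few junctions. With each position and strand counted once per library the value of 1046 kb became 849 kb and that of 24.4 kb became 90.2 kb.

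In *Cadm2* the distance was 88.2 kb with DMSO, from 19 junctions of which 8 belong to the comparison libraries (524 kb, with 3 on the minus strand), 64.5 kb with ART558, 156 kb with Aph and 137 kb with both drugs in the deficient cells, and -4.96 kb in wild-type cells with both drugs. In *Mdga2*, where all baits were counted, it was 328 kb with DMSO, 217 kb with ART558, 155 kb with Aph and 135 kb with both drugs. The last value became 65.0 kb without recurrent stretches and repeats. In *Dcc* it was -88.7 kb with DMSO, from 36 junctions of which 13 belong to the comparison libraries (-354 kb, with 2 on the minus strand), 99.4 kb with ART558, 93.5 kb with Aph and 90.3 kb with both drugs in the deficient cells. In wild-type *Dcc* with both drugs it was -413 kb, and 61.9 kb without the G-run site, other recurrent stretches and repeats. The densest 100 kb were chr12:67000001-67100000 in *Mdga2* with 40 junctions, of which 19 were left without recurrent stretches and repeats, chr18:71400001-71500000 in *Dcc* with 29, of which 10 were left, chr16:67055421-67155420 in *Cadm2* with 27 of 16 libraries, of which 20 were left, and chr16:41284361-41384360 in *Lsamp* with 25 of 10 libraries, of which 17 were left. Without stretches and repeats the order changed, as chr18:71700001-71800000 in *Dcc* held 20 and chr12:66800001-66900000 in *Mdga2* held 20, while chr16:40984361-41084360 in *Lsamp* also held 17.

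**Figure D3:**
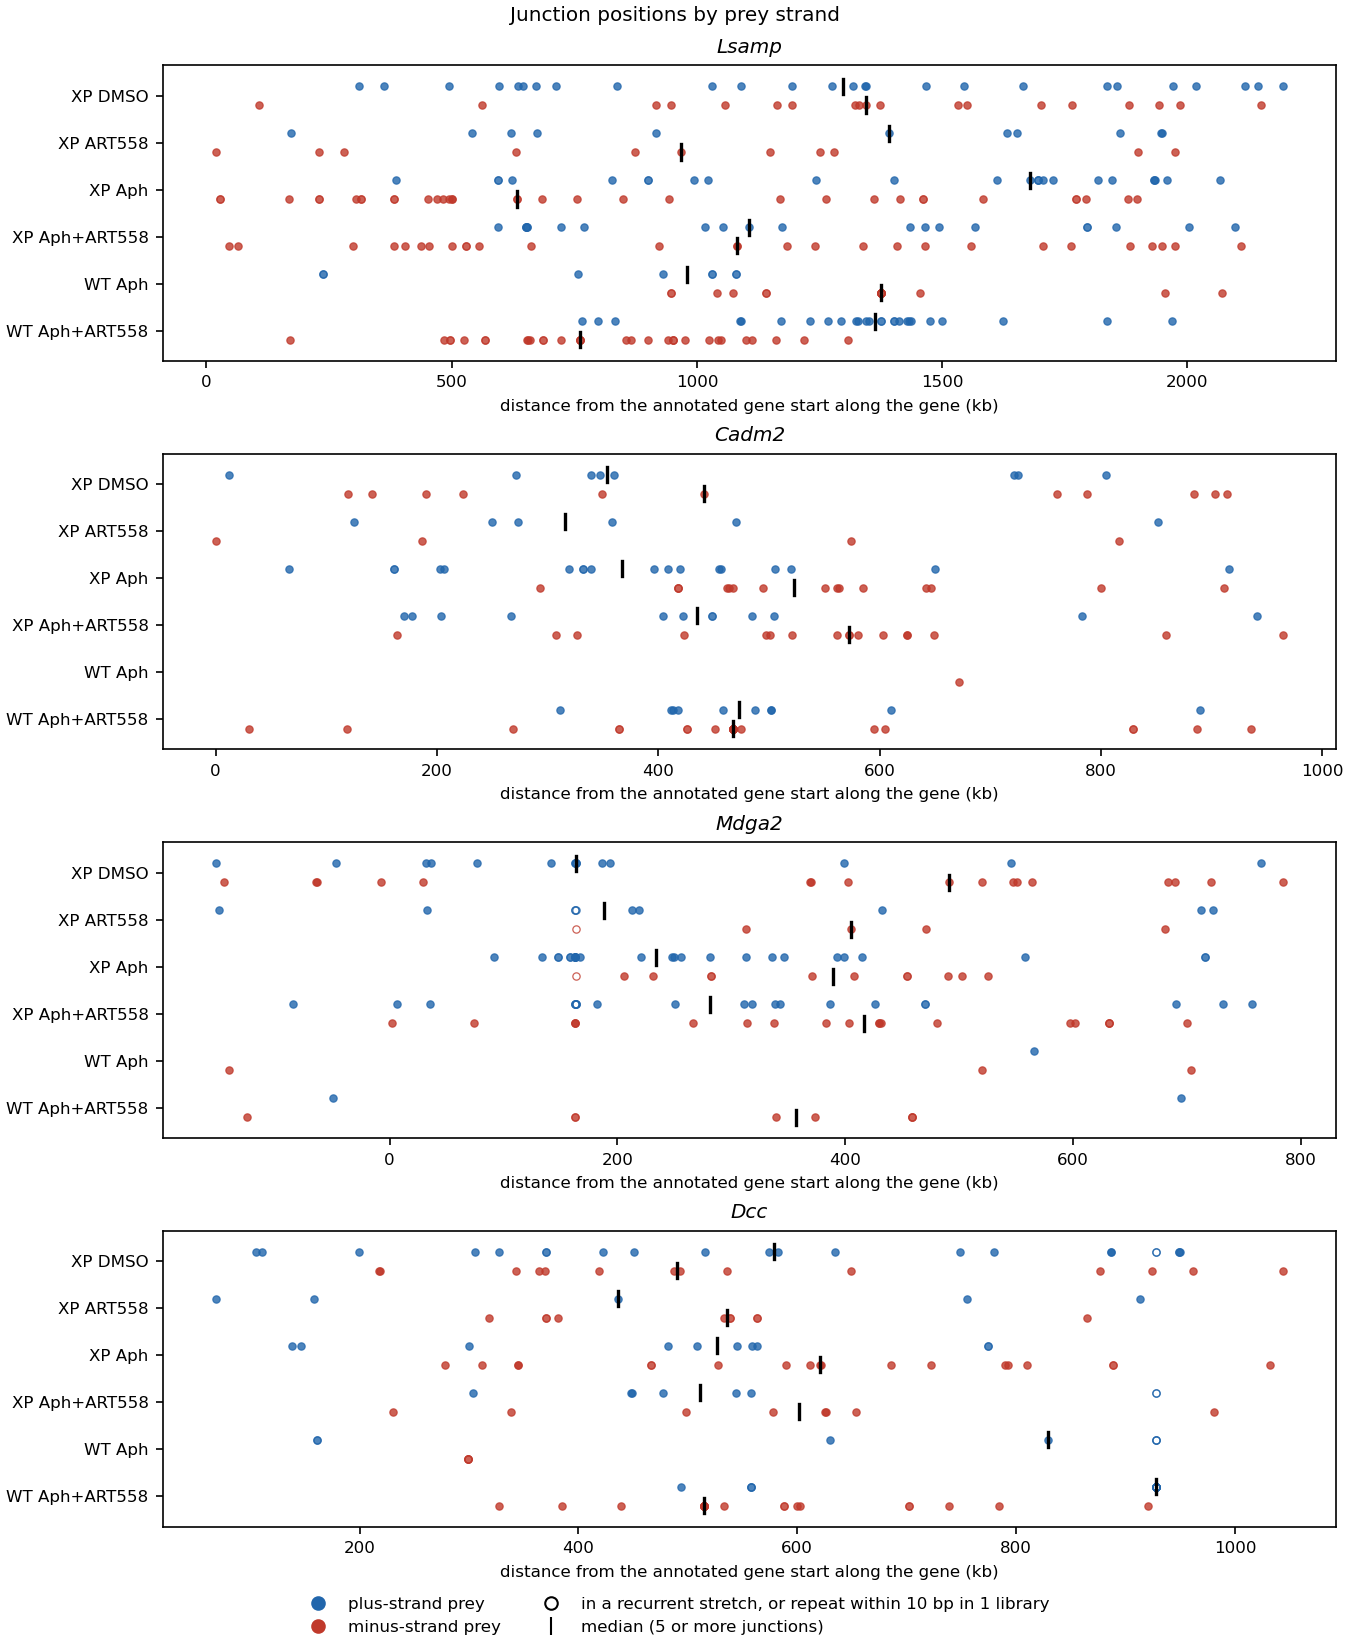
Position of each junction along the gene, in kb from the annotated gene start, by condition and prey strand (blue, plus; red, minus), over all 60 libraries and all baits, with black bars at the medians of 5 or more junctions. Open circles mark recurrent stretches and repeats within 10 bp, including the Mdga2 stretch of 19 junctions and the Dcc site of 17, and Lsamp with Aph in Xrcc4/p53-deficient cells (XP) shows the medians 1046 kb apart.

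The share of plus-strand prey was tested where both groups held at least 10 junctions of a gene, which left out *Mdga2*. Over all off-bait junctions it was 50.1% with DMSO and 50.1% with Aph in the deficient cells. In *Dcc* it was 84.6% with DMSO, 11 of 13 junctions (95% Wilson interval 57.8 to 95.7%), and 34.5% with Aph, 10 of 29 (19.9 to 52.7%), and this difference of -50.1 percentage points had an exact permutation p of 0.00667. Adjusted over the 14 strand tests run on the genes it was 0.0933, and no other had p under 0.05. Without recurrent stretches and repeats 7 of 9 DMSO junctions were on the plus strand (77.8%), and 9 of 26 with Aph (34.6%), too few for a test. The DMSO share also depended on the libraries, since it was 45.5%, 10 of 22 junctions (26.9 to 65.3%), in the 7 chromosome 6 DMSO libraries outside the comparisons. With them added, a choice made after the data were seen, the DMSO share was 60.0%, 21 of 35, and the difference -25.5 points (exact permutation p = 0.0720). *Lsamp* had 55.0% with DMSO and 42.4% with Aph (exact permutation p = 0.276).

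Microhomology is the number of bases that bait and prey share at the junction, and the question is whether Pol θ inhibition moved these genes toward direct joins, with 0 bp shared. Shares are of junctions with 0 to 10 bp, and insertions were counted apart. *Dcc* had 2 direct joins of 26 with Aph over all baits of the deficient cells (7.69%, 95% Wilson interval 2.14 to 24.1%) and 5 of 10 with both drugs (50%, 23.7 to 76.3%). On the 3 baits that both groups share the Aph share was 2 of 21 (9.52%), and the difference was 40.5 percentage points (exact permutation p = 0.0075). Adjusted over the 11 microhomology tests run on the genes it was 0.0825, and no other had p under 0.05. With insertions in the denominator the difference was 22.6 points (exact permutation p = 0.06). *Dcc* with Aph also held 12 junctions of 26 with 2 bp of microhomology (46.2%, 28.8 to 64.5%), against 19.5% of all off-bait junctions.

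Neither *Lsamp* nor *Cadm2* had an unadjusted p under 0.05 in the same comparison. *Lsamp* had 15.8% direct joins with Aph on the shared baits and 27.5% with both drugs (exact permutation p = 0.298). *Cadm2* had 4.35% and 17.6% (exact permutation p = 0.18). *Mdga2* had 0 of 4 with Aph on the shared baits and 6 of 15 with both drugs, too few for a test. Over all off-bait junctions the share was 25.7% with Aph and 33.2% with both drugs (exact permutation p = 0.0025).

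For ART558 against DMSO, *Lsamp* had 6 direct joins of 15 with ART558 (40%) and 1 of 15 with DMSO (6.67%), a difference of 33.3 points (exact permutation p = 0.303). With the 7 chromosome 6 DMSO libraries added it was 34.6 points (unadjusted exact permutation p = 0.0316). *Dcc* had 3 of 10 (30%) and 2 of 10 (20%, exact permutation p = 0.610). *Cadm2*, with 2 of 9 and 1 of 6, and *Mdga2*, with 0 of 1 and 2 of 4, held too few for a test. Over all off-bait junctions the share was 35.3% with ART558 and 21.2% with DMSO (exact permutation p = 0.001). These shares leave out the 7 added chromosome 6 DMSO libraries, so the *Lsamp* value with them has no share of all junctions beside it. In wild-type libraries *Lsamp* had 27.8% with Aph and 33.3% with both drugs, *Cadm2* 17.2% with both drugs, and all off-bait junctions 27.5% and 27.7%. *Dcc* had 13 of 18 with both drugs (72.2%, 49.1 to 87.5%), which includes the junction captured 7 times in 1 library, and 8 of 11 without recurrent stretches and repeats (72.7%, 43.4 to 90.2%). The intervals cover counting error alone, since no molecular identifiers separate copies of a molecule.

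**Figure D4:**
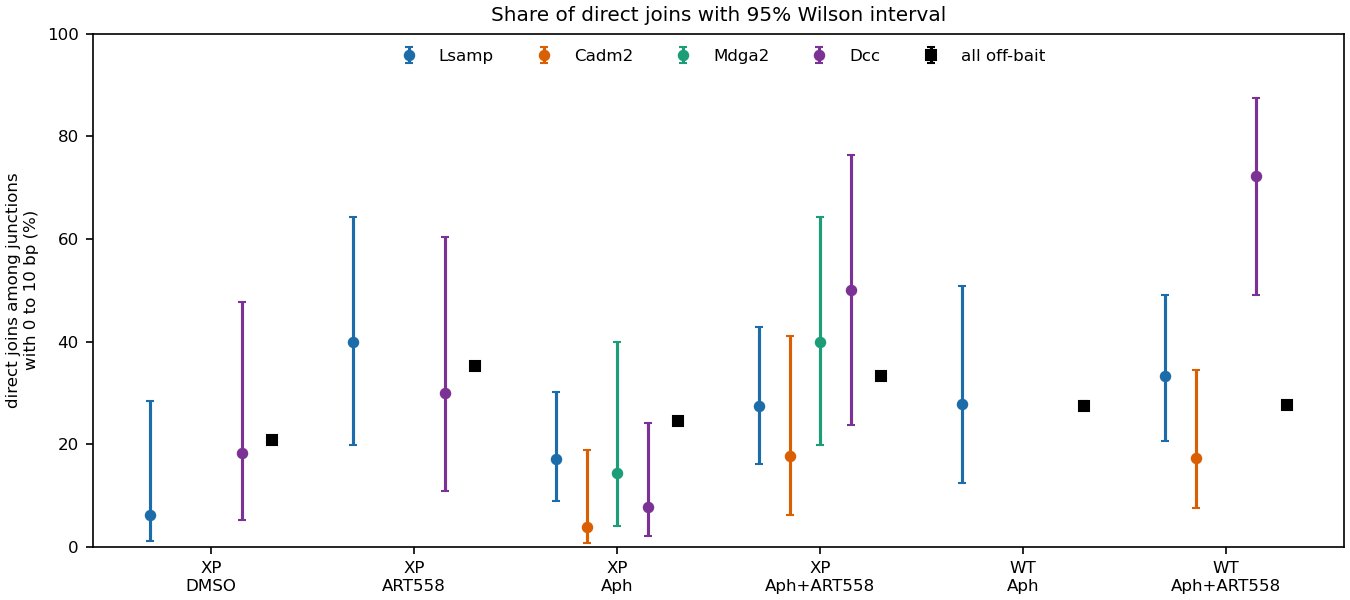
Share of direct joins among junctions with 0 to 10 bp of microhomology, in percent with 95% Wilson intervals, for each gene with at least 10 such junctions and for all off-bait junctions (black), by condition (XP, Xrcc4/p53-deficient cells, and WT, wild-type cells). In the deficient cells Dcc stands at 7.69% with Aph and 50% with both drugs, and all off-bait junctions stand at 24.5% and 33.2%.

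The 4 genes were set beside a list of 58 neural adhesion and guidance genes, which includes them and of which 31 are in the table of long genes. Some of the list, such as netrins, neuroligins and neurexins, are ligands or partners without immunoglobulin domains. For Aph against DMSO in the deficient cells, 14 of the list could be tested, 13 had a higher density with Aph (92.9%, against 83.2% of all 101 genes), and 2 passed the adjusted threshold, where 12.9% of all genes did, *Ptprd* and *Sdk1*, which encode a receptor tyrosine phosphatase and a sidekick adhesion molecule. The median difference of the list was 0.537 JPTM and that of all 101 genes 0.377. For both drugs against Aph, 17 were tested, 5 were higher (29.4%, against 26.2% of all 130 genes) and none passed, with a median of -0.219 against -0.236 for the table. An unadjusted p under 0.05 was found for 3 of the list and for 15 of all 130 genes (11.5%), all lower. In wild-type cells 8 were tested, 6 were higher with both drugs (75%, against 73.7% of all 38 genes) and none passed, with a median of 0.482 against 0.434. By pooled density with Aph in the deficient cells, *Chl1*, a close relative of L1 that is named after its value was seen, stood first of the list at 1.66 JPTM, followed by *Cadm2* at 1.31 and *Sdk1* at 1.30, whereas *Dcc* stood at 1.08, *Mdga2* at 1.07 and *Lsamp* at 0.996. These densities rest on unlike libraries, since *Chl1* had 9 junctions in 8 libraries without the chromosome 6 bait and *Mdga2* 16 in 7 without the chromosome 12 bait, whereas *Cadm2* had 34 in 9, so this order has no test.

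Across the groups of genotype, bait and drug, long genes whose mean densities followed each gene most closely were named by Pearson's r as a description, since groups share libraries' depth and few junctions enter each. For *Lsamp* these included *Itpr1* (r = 0.704 over 12 groups) and *Astn2* (0.651 over 19). For *Cadm2* they included *Ptprk* (0.845 over 19 groups) and *Ptprd* (0.798 over 19), and for *Dcc* they were *Pcdh11x* (0.835 over 19 groups), *Dlgap2* (0.817 over 15) and *Ptprk* (0.815 over 19). For *Mdga2* they were *Galntl6* (0.868 over 11 groups), *Astn1* (0.819 over 15) and *Pcdh9* (0.799 over 11). Among the 4 genes themselves, *Cadm2* and *Dcc* had r = 0.775, *Lsamp* and *Dcc* 0.425, and *Lsamp* and *Cadm2* 0.194, while *Mdga2* had 0.0690 with *Lsamp*, 0.239 with *Cadm2* and 0.0943 with *Dcc*.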

How the data were processed

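Junction lists of 60 libraries were used as deposited. Per the study's methods, the authors aligned 150-bp paired-end reads with Bowtie2 to GRCm38 (mm10 in the submitters' processing notes) in the HTGTS pipeline. Each deposited row is 1 junction with other values only, namely prey coordinate, strand, and read and bait ends. One list ended within a line, and its complete rows were used. Junctions were counted here per region, divided by off-bait junctions (junctions off the bait chromosome) and region length. Libraries under 500 off-bait junctions (3 of 60) were left out, and regions under 20 junctions were not tested. Microhomology was the bait's end in the read minus the prey's start plus 1. Groups came from the labels.

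Differences were averaged over baits and tested by two-sided exact permutation of libraries within a bait, with Benjamini-Hochberg adjustment over all long genes tested (gene body of at least 300 kb). Chosen genes and lists were set with earlier results of these data known. The genes the text names were the 4 members, called genes of the list of 58, and the 3 most alike in pattern. Some items these rules name are not reported here. Replicate numbers were not used to pair libraries. Python 3.11.15, numpy 2.4.6, pandas 2.3.3 and pysam 0.24.0 were used. Comparisons share libraries, so they are not independent. Alternatives were other denominators, minima, regions and tilings, pooled densities, repeats counted once, a replicate block and the leaving out of single libraries. The assay records ends that were joined and recovered.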

Additional observations from a re-analysis of the deposited data

Results flagged for a closer look

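Of 16 combinations of gene and group (4 to 10 libraries) examined for a library far from the others by the ratio of gap to range, 3 stood out. About 1 in 20 is the rate for well-spread values, and it does not apply where all other libraries are at 0, as in the first 2, since any junction then gives the highest ratio. *Cadm2* stood at 0.4511 JPTM in the fourth wild-type chromosome 14 Aph library, with its single junction, and at 0 in the other 3. *Lsamp* stood at 2.504 JPTM in the first wild-type chromosome 6 Aph plus ART558 library and at 0 in the other 3, and 7 of its 9 junctions there belonged to families of 4 and 3 near-identical junctions. *Cadm2* stood at 1.629 JPTM in the seventh chromosome 6 DMSO library of the promoter and enhancer experiment, and at 0.4204 or less in the others.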

How the results depend on the processing

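For Aph against DMSO in *Xrcc4*/*p53*-deficient cells every alternative kept the direction for all 4 genes. Those that passed the adjusted threshold follow, without the share of all long genes that passed in the same setting. Per 1000 of all junctions, the differences were 0.2498 for *Lsamp*, 0.3785 for *Cadm2*, 0.1995 for *Mdga2* and 0.2563 for *Dcc*. Without a depth minimum they were 0.6018 for *Lsamp* and 1.024 for *Cadm2*, while *Dcc* dropped to 0.2019 (adjusted p = 0.907, exact permutation). Without recurrent stretches and with repeats counted once, *Dcc* was at 0.8619. Within sequencing runs, *Lsamp* was at 0.5981, *Cadm2* at 1.102 and *Dcc* at 0.6808. Leaving out 1 library gave 0.4674 to 0.6363 for *Lsamp*, 0.7526 to 1.102 for *Cadm2* and 0.4073 to 0.7971 for *Dcc*. The count of called long genes went from 13 to 3 with a minimum of 10 junctions and to 0 over 1 Mb tiles, and that for wild-type against deficient cells under Aph from 3 to 0 and 0; both test more features.

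The following differences turned in sign; the cause was not tested. Per 1000 of all junctions, *Lsamp* for both drugs against Aph was 0.02213, *Mdga2* for ART558 against DMSO 0.0287, *Dcc* for both drugs against ART558 0.03001, *Dcc* for wild-type against deficient cells under Aph 0.3305, and *Mdga2* with the chromosome 12 bait 0.2175 for ART558 against DMSO and 0.01951 for both drugs against ART558. In the other region, ART558 against DMSO was -0.1606 for *Lsamp* and -0.0249 for *Dcc*. With pooled densities, *Cadm2* for ART558 against DMSO was -0.01977, *Lsamp* for wild-type both drugs against Aph 0.3101, genotype under Aph 0.01376 for *Dcc* and -0.04526 for *Lsamp*, and *Mdga2* with the chromosome 12 bait for both drugs against ART558 0.03284. For ART558 against DMSO, labels permuted over all baits gave 0.06086 for *Mdga2*, and the added promoter and enhancer DMSO libraries gave -0.03741 for *Cadm2*.

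With each position and strand counted once, ART558 against DMSO was 0.01412 for *Mdga2*, both drugs against ART558 0.09544 for *Dcc*, and *Lsamp* 0.2593 for wild-type both drugs against Aph, -0.07002 for genotype under Aph and -0.1018 for genotype under both drugs. Repeat and stretch settings were chosen after seeing the data. With repeats within 10 bp counted once, these were 0.05958, 0.1073, 0.5206, -0.2288 and -0.1778, and the *Lsamp* genotype difference in the ART558 effect was 0.126. With recurrent stretches left out as well, *Dcc* was 0.02047 for both drugs against ART558, *Lsamp* was 0.5247, -0.1818, -0.1469 and 0.09124 for the same comparisons, *Cadm2* for ART558 against DMSO was -0.000341 (-0.0015 with stretches alone left out), *Mdga2* with the chromosome 12 bait for Aph against DMSO was -0.002633, and the strand share of *Lsamp* for genotype under Aph was 3.167 points. With insertions in the denominator the *Dcc* direct-join difference was 22.55 points (unadjusted exact permutation p = 0.06). With the promoter and enhancer DMSO libraries added, the *Dcc* strand difference for Aph against DMSO was -25.52 points, and the *Lsamp* direct-join difference for ART558 against DMSO was 34.59 points (unadjusted exact permutation p = 0.0316, against 0.303 without them).

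Distances between strand medians moved to 849.2 kb (*Lsamp*, Aph, deficient), 464.7 kb (*Lsamp*, wild-type, both drugs) and -339.9 kb (*Dcc*, wild-type, both drugs) with each position counted once, and to 481.1 kb (*Lsamp*, wild-type, both drugs), 65.02 kb (*Mdga2*, deficient, both drugs) and 137.9 kb (*Dcc*, deficient, both drugs) without stretches and repeats.

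Leaving out 1 library turned these differences over the ranges, or moved the call of *Cadm2* in wild-type cells: -0.1089 to 0.1563 for *Cadm2* and -0.1833 to 0.07607 for *Mdga2* (ART558 against DMSO); -0.09203 to 0.05463 for *Dcc* and -0.0455 to 0.2489 for *Lsamp* (both drugs against ART558); 1.717 to 2.625 for *Cadm2* and -0.6521 to 0.7105 for *Lsamp* (wild-type, both drugs against Aph); -0.8555 to 0.07041 for *Dcc* and -0.5527 to 0.8099 for *Lsamp* (genotype under Aph); -0.483 to 0.3516 for *Lsamp* (genotype under both drugs); -1.726 to 0.9991 for *Lsamp* and -0.9717 to 0.1056 for *Mdga2* (ART558 effect between genotypes); and, with the chromosome 12 bait, -0.00843 to 0.7415 (Aph against DMSO) and -0.5186 to 0.1735 (both drugs against ART558) for *Mdga2*. It moved others by over 1.5 times without turning them: -0.9324 to -0.4127 for *Dcc*, -0.932 to -0.4712 for *Cadm2*, -0.4407 to -0.2147 for *Lsamp* and 0.4981 to 1.037 for *Mdga2* (both drugs against Aph); 0.09679 to 0.3912 for *Lsamp* and 0.01532 to 0.1552 for *Dcc* (ART558 against DMSO); 0.2735 to 0.716 for *Cadm2* (both drugs against ART558); 0.1471 to 0.4181 for *Mdga2* and 0.8496 to 1.848 for *Dcc* (wild-type, both drugs against Aph); -1.666 to -0.921 for *Cadm2* and -1.596 to -0.8978 for *Mdga2* (genotype under Aph); 1.228 to 3.045 for *Cadm2*, 1.463 to 2.882 for *Dcc* and -1.388 to -0.3104 for *Mdga2* (genotype under both drugs); 1.371 to 3.368 for *Dcc* (ART558 effect between genotypes); and -0.9212 to -0.1713 for *Mdga2* with the chromosome 12 bait (ART558 against DMSO).

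Of 37 same-numbered library pairs 16 had deviations correlated above 0.1 (median 0.0895, lowest -1, highest 0.834). These correlations rest on 1 to 38 genes each, too few in many pairs to decide whether the numbers pair libraries, and the numbers were not used as pairs. With the replicate block, adjusted p for Aph against DMSO were 0.144, 0.237, 0.287 and 0.237 for *Lsamp*, *Cadm2*, *Mdga2* and *Dcc*, and no call of the 4 genes changed. The block turned ART558 against DMSO to -0.05836 for *Cadm2*, 0.0099 for *Mdga2* and -0.03868 for *Dcc*, both drugs against ART558 to 0.003485 for *Dcc*, and genotype under Aph to -0.3726 for *Lsamp*. Depth limits all of this: the *Mdga2* and *Dcc* regions held 0 junctions in 3 chromosome 8 DMSO libraries, which together allow up to 1.24 JPTM.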
